A study of Mus musculus with 19 samples.

Results

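The 10 genes of the Wnt pathway described here were followed through the early mouse thymic primordium: the ligands Wnt4, Wnt5a, Wnt5b and Wnt6, the receptors Fzd2 and Fzd7, the co-receptor Lrp6, the intracellular effectors Ctnnb1 and Lef1, and the feedback gene Axin2. They were chosen by name as members of the pathway, with earlier results of these data known, and are 10 of the 54179 genes in the table of raw read counts. All 10 passed the filter on low counts in the main test between stages. In the test by Foxn1 reads 6 did, without Wnt5b, Wnt6, Fzd7 and Axin2. Their level, and the share of cells in which they were read, were compared between stages and between plates, and Wnt4 was compared cell by cell with Foxn1, the transcription factor that drives thymic epithelial differentiation.

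The cells were single EPCAM+PLET1+ cells sorted from microdissected wild type primordia at 2 embryonic stages, E10.5, when the primordium lies in the third pharyngeal pouch, and E12.5. The study's methods name C57BL/6 as the strain for fetal thymic epithelium. At each stage 4 plates of the BD Precise WTA assay (lettered a to d for E10.5, and a, c, d, e for E12.5) were in the table, each as the sum of 2 sequencing runs. E10.5 plate d and E12.5 plate e had 3 runs, of which the table sums runs 1 and 3. The labels name no embryos, litters or sexes for a plate, so p-values measure the spread between plates, which may be technical. E12.5 plate b, with a single shallow run, was used only where it is named.

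Wnt proteins are secreted ligands that bind Frizzled receptors. With the co-receptors Lrp5 and Lrp6 they stabilise β-catenin (Ctnnb1), which enters the nucleus and acts with TCF/LEF factors such as Lef1, whereas other Wnt signals act through Frizzled and Ror receptors without β-catenin. In the embryonic thymus Wnt signals from the epithelium and its neighbours are known to bear on the expression of Foxn1, and Wnt4 is a ligand made by thymic epithelial cells.

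After filtering, 711 of 733 wells were kept (356 at E10.5 and 355 at E12.5), with 85 to 92 cells a plate. Each plate held between 14981265 and 20106286 reads over all genes, and the median number of protein-coding genes per cell lay between 1480.5 and 3260. E10.5 plate a gave the lowest median and the fewest molecules, 250144 against 861216 to 936219 on the other E10.5 plates. These totals, the molecule levels and the stage fit on molecules add the molecule counts of both runs. A molecule seen in both runs can thus be counted in each. A level is in CPM, that is, per 1000000 reads on protein-coding genes summed over the cells of a plate. Shares are the percentage of cells with at least 1 read after every cell was thinned to 40000 reads. Thinning matches reads and not molecules, whose median per cell in the first runs still ranged from 1305 to 5175 over the plates of the table. Of the genes of the sort, Epcam was at 420 to 491 CPM at E10.5 and 280.0 to 734 CPM at E12.5, and Plet1 at 271 to 409 CPM and 50.02 to 128 CPM. The summed level of 8 epithelial and pouch markers, with Epcam, was 1154 to 1471 CPM at E10.5 and 5739 to 6589 CPM at E12.5. The 5 cortical thymic epithelial markers, with Foxn1, were 64.2 to 90.7 CPM at E10.5 and 5677 to 6219 CPM at E12.5. Markers of other cell types were also read. The 4 parathyroid markers summed to 7.62 to 36.0 CPM and 2737 to 8564 CPM, 8 neural markers to 1363 to 2968 CPM and 1289 to 1742 CPM, and 7 mesenchymal markers to 132 to 211 CPM and 6.97 to 39.6 CPM, for E10.5 and E12.5 respectively. The 7 markers of medullary progenitors summed to 549.7 to 682.6 CPM and 514.8 to 1049.9 CPM. Most of the mesenchymal sum at E10.5 came from Col1a2 and Prrx2, while Col3a1 stayed below 1 CPM on every plate. Endothelial (4 genes, at most 25.0 CPM; Cdh5 and Tie1 at 0) and blood markers (6 genes, at most 47.2 CPM; Hbb-bt at 0) were low. The parathyroid, mesenchymal and endothelial sums did not overlap between stages, and the neural, medullary progenitor and blood sums did.

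The start regions of 7 of the 10 genes were available from RefSeq (GRCm38.p6). Those of Wnt4 and Wnt6, which passed the stage test, of Wnt5b, whose reads at E12.5 are set beside cell markers, and that of Lef1 with the most motif matches, are shown as the 250 bases before a start site, 5′ to 3′ on the strand of the gene. Capitals mark CTTTGA or CTTTGT, the core letters bound by TCF/LEF factors, on either strand; GACGC, a core bound by FOXN1, was searched in the same way and is not in these 4 stretches, though another start region of Wnt5b (chr6:119544348-119544597) holds it at 183 and 49 bases before the start.
Wnt4 (chr4:137277385-137277634, + strand): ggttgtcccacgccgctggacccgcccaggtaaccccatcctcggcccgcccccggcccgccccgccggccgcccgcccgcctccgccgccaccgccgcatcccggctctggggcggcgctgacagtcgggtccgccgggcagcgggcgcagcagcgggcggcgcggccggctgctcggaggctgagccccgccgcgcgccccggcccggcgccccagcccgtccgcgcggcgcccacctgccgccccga
Wnt6 (chr1:74771642-74771891, + strand): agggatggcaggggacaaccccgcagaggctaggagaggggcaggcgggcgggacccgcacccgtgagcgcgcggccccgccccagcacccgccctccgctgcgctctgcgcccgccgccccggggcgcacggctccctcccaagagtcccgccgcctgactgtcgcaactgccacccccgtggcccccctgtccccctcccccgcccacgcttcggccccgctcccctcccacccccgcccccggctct
Wnt5b (chr6:119449387-119449636, − strand): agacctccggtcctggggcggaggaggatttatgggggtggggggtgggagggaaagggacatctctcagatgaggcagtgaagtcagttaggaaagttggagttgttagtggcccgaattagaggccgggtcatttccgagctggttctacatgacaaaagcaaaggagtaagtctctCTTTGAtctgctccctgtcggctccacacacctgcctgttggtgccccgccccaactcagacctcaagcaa
Lef1 (chr3:131156044-131156293, + strand): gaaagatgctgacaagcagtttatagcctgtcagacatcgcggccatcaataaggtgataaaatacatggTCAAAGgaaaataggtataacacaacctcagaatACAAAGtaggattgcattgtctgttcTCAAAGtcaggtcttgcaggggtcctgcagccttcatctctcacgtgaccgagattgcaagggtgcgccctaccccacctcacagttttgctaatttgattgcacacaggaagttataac
The Wnt4 and Wnt6 stretches hold neither TCF/LEF core. The Wnt5b stretch, 1 of 3 listed start regions of that gene, holds 1 core, 71 bases before the start. The Lef1 stretch, 1 of 4, holds 3, at 180, 146 and 120 bases before it. Of all 32851 start regions in the table, 27.6% hold at least 1 of the cores and 22.6% hold GACGC, so these matches describe the letters and not binding. Among the 13 regions of the 7 genes, 3 hold a TCF/LEF core and 6 hold GACGC.

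Of the 10 genes, 2 rose and 1 fell between E10.5 and E12.5 (edgeR quasi-likelihood test on plate sums, Benjamini-Hochberg adjusted over 11499 genes, threshold 0.05), against 6.24% of all genes tested, 3.8% higher and 2.44% lower. Wnt4 and Fzd2 rose and Wnt6 fell. The median log2 fold change was -0.35 over the 10 genes and 0.0013 over all genes tested. The other 7 genes did not pass the test, and for most of them the interval of the difference was wide. With so few genes, chosen with earlier results of these data known, these counts say nothing about the pathway as a whole.

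**Figure D1:**
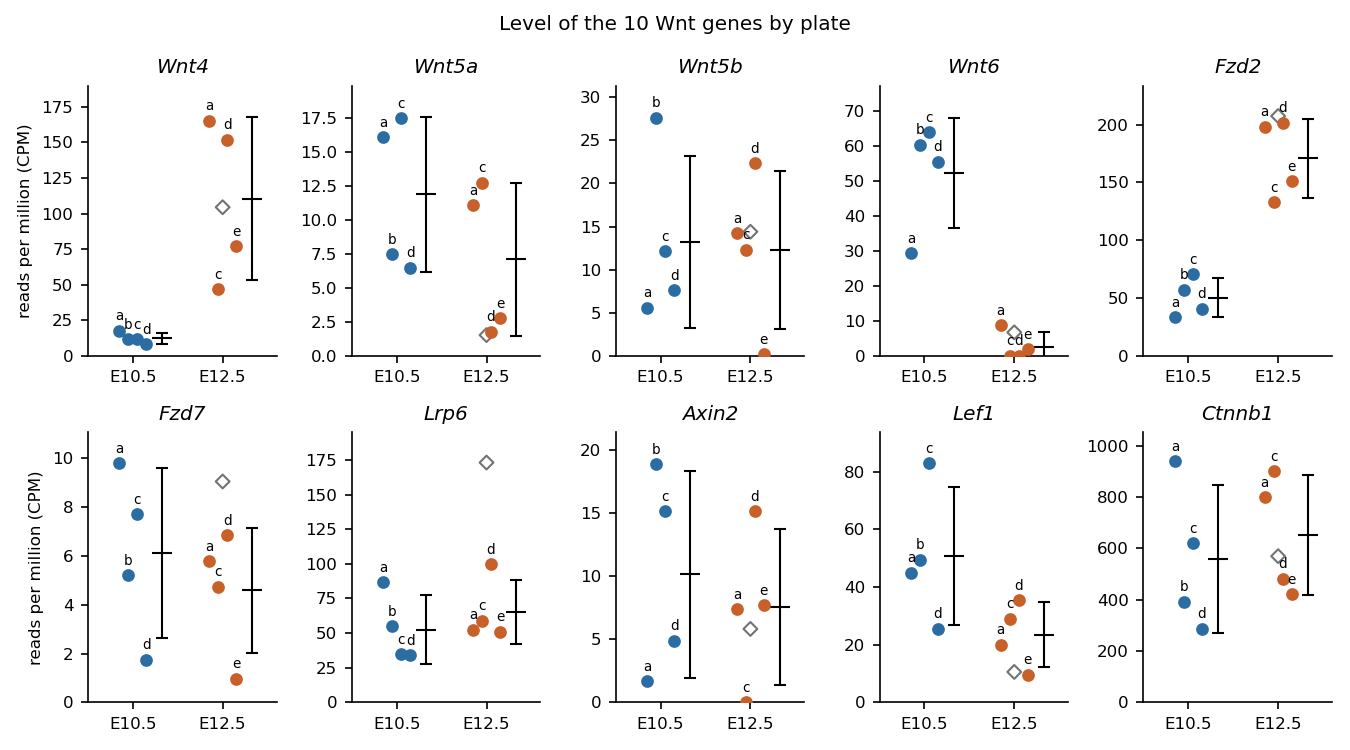
Level of each of the 10 Wnt genes, in CPM (vertical axis, from 0, a separate scale for each gene), at E10.5 (blue) and E12.5 (orange). Each filled point is a plate, named by its letter, the bar to its right is the mean with ± 1 SD of the 4 plates (cut at 0 for Wnt6), and the open diamond is E12.5 plate b, which is outside the mean; the stages do not overlap for Wnt4, Wnt6 and Fzd2.

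Wnt4 (chromosome 4, 137277635 to 137299501, + strand, GRCm38.p6) was the ligand that rose. Its level was 17.7, 11.7, 11.6 and 8.35 CPM on E10.5 plates a to d. On the plates a, c, d and e of E12.5 it was 165, 47.1, 152 and 77.1 CPM. Every E12.5 plate lay above every E10.5 plate, and the E12.5 plates themselves differed over a wide range, with plate c lowest. The mean rose from 12.3 ± 3.92 to 110 ± 57.3 CPM (SD, n = 4 plates), a log2 fold change of 3.12 (SE 0.43, 95% interval 2.17 to 4.06, edgeR adjusted p = 0.0013). E12.5 plate b, outside the fit, read 104 CPM.

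More cells also had a Wnt4 read. At E10.5 it was read in 2 of 88, 4 of 91, 4 of 85 and 8 of 92 cells. At E12.5 the counts were 30 of 91, 15 of 90, 36 of 85 and 40 of 89 cells. Pooled, 5.06% of E10.5 cells (exact 95% binomial interval 3.02% to 7.87%) and 34.1% of E12.5 cells (29.2% to 39.3%) had a read, and intervals cover counting error only. The order of the E12.5 plates was not the same by share as by level: plate e had the highest share and plate a the highest level. From the lowest share to the highest, plates b, c, a, d and e stood in the order of their median molecules per cell (1536, 1813, 2446, 3566 and 5169), whose part in the shares was not tested. On plate c a single cell gave 42.4% of the Wnt4 reads, and on plate d no cell gave more than 6.38%. The median positive E12.5 cell had at least 4 Wnt4 reads of 40000 on each plate, and the highest had 164, on plate a. The 2 sequencing runs gave 166 and 165 CPM on E12.5 plate a and 42.9 and 51.1 CPM on E12.5 plate c. They gave 141 and 165 CPM on E12.5 plate d, and 22.6 and 11.9 CPM on E10.5 plate a. Counted as molecules added over both runs and scaled like CPM, the E10.5 mean of Wnt4 was 12.4 ± 7.82 and the E12.5 mean 93.5 ± 31.96 (SD, n = 4 plates).

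Wnt6 (chromosome 1, 74754342 to 74785322, + strand) moved in the opposite direction. It stood at 29.4, 60.4, 63.99 and 55.6 CPM on E10.5 plates a to d, and at 8.71, 0.068, 0.057 and 1.94 CPM on the plates a, c, d and e of E12.5. The stages did not overlap. The log2 fold change was -4.46 (SE 1.19, 95% interval -7.07 to -1.85), and the edgeR adjusted p of 0.049 was just inside the threshold. Wnt6 met the filter on low counts through its E10.5 plates, as its E12.5 levels alone fell short of it. Without that filter the edgeR adjusted p was 0.051. Wnt6 passed in 6 of 19 other fits, with a log2 fold change between -7.30 and -4.04 in every one of them, so its direction held while its call did not. The adjusted p was 0.096 to 0.11 without E10.5 plate b, c or d, and 0.064, 0.068 and 0.12 without E12.5 plate c, d or e (edgeR). At E10.5 it was read in 6, 29, 25 and 20 cells of plates a to d, 22.5% of 356 cells (18.2% to 27.2%), with the low count on plate a, the plate with the fewest molecules. At E12.5 it was read in 3 of 355 cells (0.845%, 0.175% to 2.45%), and all 143 reads of plate a came from 1 cell. E12.5 plate b gave 6.74 CPM, again from 1 cell.

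Wnt5a (chromosome 14, 28504543 to 28527448, + strand) and Wnt5b (chromosome 6, 119432531 to 119544824, − strand) are ligands best known for signals that do not use β-catenin, and neither passed the stage test. Wnt5a had 16.1, 7.47, 17.5 and 6.47 CPM on E10.5 plates a to d and 11.1, 12.7, 1.77 and 2.78 CPM on the plates a, c, d and e of E12.5. The stages overlapped, and the log2 fold change was -0.85 (95% interval -2.47 to 0.78, edgeR adjusted p = 0.62). Wnt5b had 5.57, 27.6, 12.2 and 7.59 CPM at E10.5 and 14.2, 12.3, 22.3 and 0.194 CPM at E12.5. These ranges overlapped in part, with E10.5 plate b above and E12.5 plate e below all plates of the other stage. The log2 fold change was -0.24 (95% interval -2.37 to 1.89, edgeR adjusted p = 0.94). The cells with Wnt5b reads at E12.5 are described below. The exons of Wnt5a overlap the antisense gene Gm2670 in GENCODE vM21, and the strand setting of the counting is not given in the sources used here, so their reads cannot be told apart.

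Among the receptors, Fzd2 (chromosome 11, 102604431 to 102608058, + strand) rose and Fzd7 (chromosome 1, 59482147 to 59486955, + strand) did not pass the test. Fzd2 was at 33.5, 57.1, 70.6 and 40.8 CPM on E10.5 plates a to d. On the plates a, c, d and e of E12.5 it was at 198, 133, 202 and 151 CPM, each above the highest E10.5 plate. The mean rose from 50.5 ± 16.6 to 171 ± 34.2 CPM (SD, n = 4 plates), with a log2 fold change of 1.68 (SE 0.32, 95% interval 0.99 to 2.37, edgeR adjusted p = 0.0085), and plate b had 207 CPM. On plates a, c and d of each stage alone the edgeR adjusted p was 0.058. Cells with an Fzd2 read went from 15, 34, 29 and 19 per plate, 27.2% of all E10.5 cells, to 45, 27, 38 and 47 per plate, 44.2% of all E12.5 cells. By share the stages overlapped, since E12.5 plate c (30.0% of its cells) lay below E10.5 plates b and c.

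Fzd7 had at most 9.78 CPM on any plate of the table. It was read in 38 of 356 cells at E10.5, 19 of them on plate c, and in 23 of 355 cells at E12.5. Its molecules were each seen in few reads, 4.29 per molecule in the first runs against a median of 17.9 over 9658 genes with at least 20 molecules, which is percentile 3.29 among those genes. Its difference had the opposite sign in molecules (log2 fold change 0.41) and in reads (-0.45), neither past the threshold.

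Lrp6 (chromosome 6, 134446476 to 134566913, − strand) was read in more cells at E12.5 without a called change in level. Its level was 86.9, 54.8, 34.7 and 34.0 CPM at E10.5 and 52.4, 58.9, 99.9 and 50.9 CPM at E12.5, which overlap (log2 fold change 0.31, 95% interval -0.49 to 1.11, edgeR adjusted p = 0.75), and the difference was -0.04 without the neural and parathyroid marker ranges described below. It was read in 19 of 88, 17 of 91, 17 of 85 and 8 of 92 cells on E10.5 plates a to d. At E12.5 it was read in 30 of 91, 24 of 90, 33 of 85 and 28 of 89 cells. Here the stages did not overlap at 40000 reads per cell, but they did overlap when cells with a molecule in the first run were counted. Single cells carried much of the reads on several plates, 65.8% on E10.5 plate d and 47.7% on E12.5 plate e.

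Of the intracellular members, Ctnnb1 (chromosome 9, 120933400 to 120960507, + strand), which encodes β-catenin and also serves at adherens junctions, was read in nearly all cells, 92.1% at E10.5 and 94.6% at E12.5. It had 940, 392, 619 and 288 CPM at E10.5 and 800, 901, 482 and 422 CPM at E12.5. The log2 fold change of 0.18 had an interval from -0.49 to 0.84 (edgeR adjusted p = 0.84). Exons of Ulk4 lie on the opposite strand of Ctnnb1.

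Lef1 (chromosome 3, 131110297 to 131224357, + strand), a nuclear partner of β-catenin whose own transcription is a known response to Wnt signals, had 44.9, 49.5, 83.0 and 25.6 CPM at E10.5 and 19.98, 29.0, 35.5 and 9.68 CPM at E12.5. E10.5 plate d overlapped the E12.5 plates. The log2 fold change was -1.18 (SE 0.47, 95% interval -2.20 to -0.15) and missed the threshold after adjustment over all genes (edgeR adjusted p = 0.21). Lef1 was read in 39 of 356 cells at E10.5, 20 of them on plate c, and in 17 of 355 at E12.5. On E12.5 plates a, c and d 1 cell each gave 85.1% or more of the Lef1 reads.

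Axin2 (chromosome 11, 108917828 to 108950783, + strand), a scaffold of the β-catenin destruction complex and a common readout of the pathway, was sparse at both stages. It had 1.67, 18.9, 15.2 and 4.87 CPM at E10.5 and 7.37, 0, 15.2 and 7.68 CPM at E12.5, and was read in 16 and 12 cells. The log2 fold change was -0.47 with an interval from -3.17 to 2.23 (edgeR adjusted p = 0.90), which leaves room for a change of several-fold either way. Both Lef1 and Axin2 have an antisense gene over their exons (Gm43352 and Gm11670). Cells with reads of both Axin2 and Lef1 numbered 4 at E10.5 and 0 at E12.5.

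**Figure D2:**
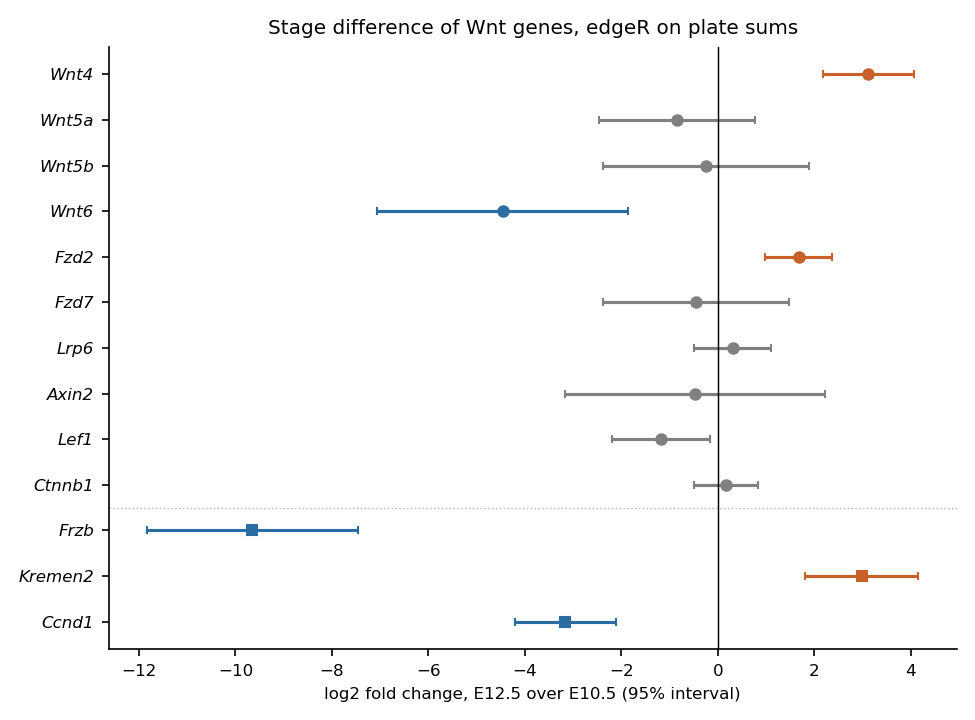
Log2 fold change of E12.5 over E10.5 (horizontal axis) with its 95% interval, from edgeR on 4 plates a stage, for the 10 genes (circles) and, under the dotted line, for other Wnt pathway genes past the threshold (squares). Orange marks genes that rose and blue genes that fell at an adjusted p under 0.05. Grey marks the rest, and Rspo1, without a read at E12.5, is not drawn. Frzb, with 4 reads at E12.5, passed the filter on low counts through its E10.5 reads alone, and its fold depends on the prior count.

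Over shares, Wnt4 and Lrp6 were higher and Wnt6 was lower at E12.5 with no overlap of plates, 3 of the 10 genes. Of all 11295 genes read in at least 10 cells, 6.06% did not overlap in the higher direction and 4.36% in the lower. Each of the 3 had p = 0.029 in a two-sided exact permutation test over plates, which is the smallest p that 4 plates against 4 can give, and 0.27 after adjustment over all 11295 genes. Wnt4 differed by 29.2 percentage points, Lrp6 by 15.2 and Wnt6 by -21.6. By level, Wnt4 and Fzd2 were higher and Wnt6 lower without overlap, where 8.61% and 5.83% of all genes did the same. Since the 10 genes were chosen with earlier results known, the shares of all genes only describe how common such a separation was.

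**Figure D3:**
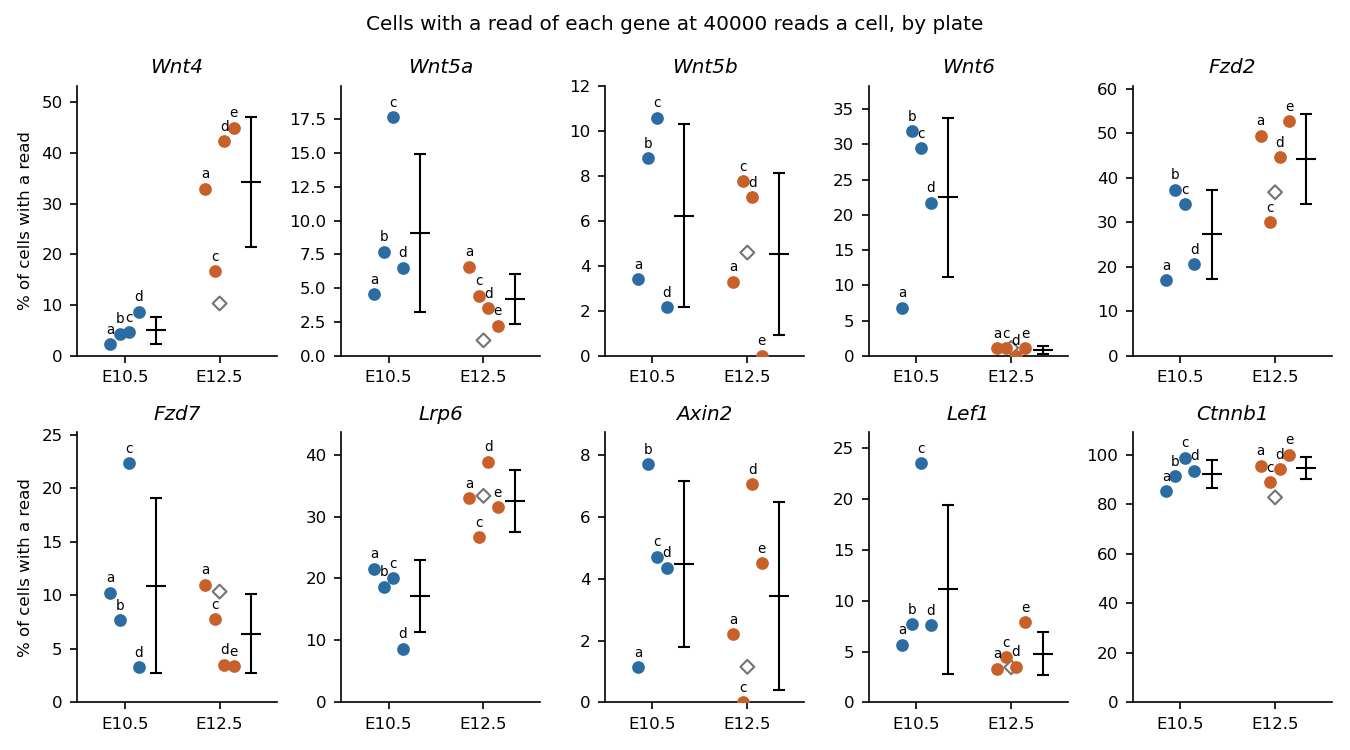
Percentage of cells with at least 1 read of each gene at 40000 reads a cell (vertical axis, from 0, a separate scale for each gene) at E10.5 (blue) and E12.5 (orange). Points are plates with their letters, the bar is the mean ± 1 SD of the 4 plates, and the open diamond is E12.5 plate b; Wnt4 and Lrp6 are higher and Wnt6 lower at E12.5 without overlap, while Fzd2 overlaps through E12.5 plate c.

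The wider pathway was read from a list of 102 genes in 9 roles, which includes the 10 genes and in which a gene may have more than 1 role. The list was also chosen with earlier results of these data known. Of the 102 genes, 74 could be tested. Of the 74, 3 rose and 4 fell, against 3.8% and 2.44% of all genes tested, and the median log2 fold change was 0.04. Of 19 ligands 7 were tested, and none but Wnt4 and Wnt6 passed. Neither of the genes for ligand secretion, Porcn and Wls, passed. Of 16 receptors and co-receptors 13 were tested and Fzd2 alone passed. None of the 14 genes of cytoplasmic transduction and the destruction complex, of the 11 tested nuclear effectors or of the 9 tested planar cell polarity genes passed at the adjusted threshold.

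The other genes of the list that passed act outside the cell, at the membrane or as targets. Frzb, a secreted decoy receptor that binds Wnt proteins, had 70.0, 30.9, 48.8 and 68.2 CPM on E10.5 plates a to d and 4 reads in all at E12.5 (edgeR adjusted p = 0.00016). The stages were far apart, with a read, before thinning, in 62 cells at E10.5 and in 3 at E12.5. Rspo1 amplifies Wnt signals by removing inhibitors of the receptors. It was low at E10.5 (112 reads in 7 cells) and had no read at E12.5 (edgeR adjusted p = 0.028). Frzb and Rspo1 passed the filter on low counts through their E10.5 reads alone, so their p-values are no independent support for a fall. No fold is given for Rspo1, since a single molecule can give many reads. Kremen2, a receptor for the Dkk inhibitors, rose from 5.97 ± 3.05 to 51.0 ± 28.5 CPM (SD, n = 4 plates), with a log2 fold change of 2.98 (SE 0.53, edgeR adjusted p = 0.0064). Ccnd1, encoding cyclin D1 and listed as a target, fell from 210 ± 85.2 to 24.4 ± 14.8 CPM (SD, n = 4 plates), with a log2 fold change of -3.16 (SE 0.48, edgeR adjusted p = 0.0023). Ccnd1 has many other regulators.

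The cells of a stage were then divided by markers that include none of the 10 genes. At E10.5, 77 of 356 cells had at least 3 of 8 neural markers at 4 or more of 40000 reads. At E12.5, 43 of 355 cells had at least 2 of the 4 parathyroid markers Gcm2, Pth, Chga and Casr, and a further 14 had at least 4 of 7 markers of medullary progenitors. These are ranges cut from marker counts and not cell types: 20, 12 and 7 cells lay at the cut and 43, 25 and 13 cells lay 1 marker below it. No test was made between ranges.

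At E12.5 the thinned Wnt5b reads of the 4 plates of the table lay in the parathyroid range. It was found in 3 of 13, 7 of 14, 6 of 9 and 0 of 7 cells of that range on plates a, c, d and e, 16 of 43 cells (37.2%, exact interval 23.0% to 53.3%), and in 0 of the 298 cells outside both ranges. Taking 3 cells of the total as the limit that a count of 0 allows, that share may be up to 1.01%; the exact binomial limit is 1.23%. The level in the range was 110, 84.9, 247 and 0.790 CPM on the 4 plates, against at most 0.162 CPM in the other cells. Plate e, with the fewest cells in the range, had no cell with a read. Of 9726 genes read in at least 10 E12.5 cells, no gene other than Wnt5b had reads in 16 or more of these 43 cells and in none of the 298. Both cuts are the counts of Wnt5b itself, and the comparison was chosen after its values were seen. When 1 more marker was required, 4 of the 317 other cells had a Wnt5b read. On plate b, 2 of the 13 cells of the range and 2 of the 74 other cells had a Wnt5b read. The E10.5 cells were not divided by parathyroid markers, so the ranges of the stages are not alike. At E10.5 Wnt5b was read in 22 of 279 cells outside the neural range and in 0 of 77 within it. That count of 0 allows up to 3.9% by the 3-cell limit and 4.68% by the exact one. With the neural and parathyroid ranges left out, Wnt5b was lower at E12.5 (log2 fold change -8.05, edgeR adjusted p = 0.0039), a fitted value that sets E10.5 cells against cells with almost no read and depends on the prior count.

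The other ligands were distributed differently. Wnt5a had reads in 7 of 43 cells of the parathyroid range (16.3%, 6.81% to 30.7%) and in 8 of the 298 others (2.68%, 1.17% to 5.22%), with 34.0, 37.5, 11.3 and 31.6 CPM in the range on plates a, c, d and e and at most 8.78 CPM outside it. On each plate the level in the range was the higher. However, a single cell on each of plates c, d and e gave 57.5%, 58.1% and 93.0% of all Wnt5a reads of the plate. Wnt4 showed the reverse, with a read in 2 of 43 cells of the range (4.65%, 0.568% to 15.8%) and in 115 of 298 others (38.6%, 33.03% to 44.4%). Its level was at most 5.53 CPM in the range and 177, 56.3, 170 and 94.0 CPM outside it. Fzd2 was read in 4 of 43 and 146 of 298 cells, but on plate c its level was higher in the range, at 146 against 134 CPM. Ctnnb1 was read in 39 of 43 and 283 of 298 cells. At equal depth the cells of the range had a median of 1725 genes against 1954.

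At E10.5 the neural range held few reads of most of the 10 genes. Wnt4 was read in 0 of 77 cells of the range and 18 of 279 others, Wnt6 in 6 and 74, Fzd2 in 14 and 83, Lef1 in 3 and 36, and Fzd7 in 1 and 37. These counts pool cells over plates, and the cells of a plate are not replicates, so no difference between the ranges is read from them. Of the 38 E10.5 cells with an Fzd7 read, 19 were on plate c. Wnt5a was read in 6 of 77 and 26 of 279 (exact intervals 2.91% to 16.2% and 6.18% to 13.4%, for counting error only), and Ctnnb1 in 73 of 77 and 255 of 279. The median number of genes at equal depth was 2111 in the range and 2113 outside it. Of the 14 cells with markers of medullary progenitors, 8 were on 1 plate and the other plates had too few for a level. Without the neural and parathyroid ranges the stage log2 fold change was 2.97 for Wnt4 and 1.55 for Fzd2, and both passed the threshold. Wnt6, at -4.53, did not (edgeR adjusted p = 0.07).

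**Figure D4:**
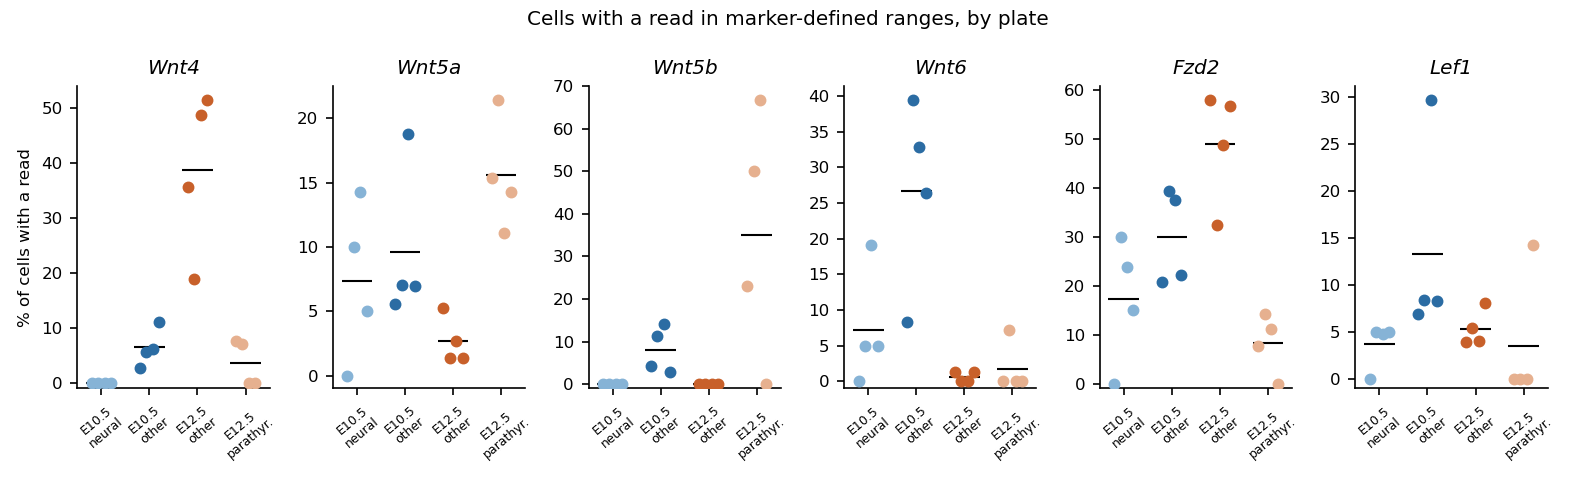
Percentage of cells with a read (vertical axis, a separate scale for each gene) of 6 of the genes in cells of the neural marker range and other cells at E10.5 (blues), and in other cells and cells of the parathyroid marker range at E12.5 (oranges). Each point is a plate and the line is the mean of 4 plates; Wnt5b at E12.5 has points above 0 in the parathyroid range alone, and Wnt4 is highest in the other E12.5 cells.

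At least 1 of the 4 ligands was read in 120 of 356 cells at E10.5 and in 147 of 355 at E12.5. More than 1 was read in 30 cells at E10.5, of which 11 had Wnt5a with Wnt6, 10 Wnt5b with Wnt6 and 9 Wnt4 with Wnt6 among other combinations. At E12.5 the number was 8, and no cell of either stage had both Wnt4 and Wnt5b. Since reads of single genes are easily missed in a cell, these are counts of reads and not of expressing cells. Fzd2 was read in 61 of the 121 Wnt4-read cells and in 96 of the other 234 cells at E12.5, 50.4% and 41.0%, with the higher share among Wnt4-read cells on plates a, d and e and the lower on plate c. A Frizzled (Fzd2 or Fzd7) together with Lrp6 was read in 30 cells at E10.5 and 58 at E12.5.

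Foxn1 itself had at most 1.53 CPM on any E10.5 plate and 211, 277, 196 and 164 CPM on the plates a, c, d and e of E12.5, with a read in 52 of 91, 52 of 90, 54 of 85 and 68 of 89 cells. In the E12.5 cells, Wnt4 and Foxn1 reads were found together in 99 cells, Wnt4 without Foxn1 in 22, Foxn1 without Wnt4 in 127 and neither in 107. Of the Foxn1-read cells, 44.2%, 25.0%, 51.9% and 51.5% also had a Wnt4 read on plates a, c, d and e. Of the cells without a Foxn1 read, 17.9%, 5.26%, 25.8% and 23.8% did. The share was higher with Foxn1 on each of the 4 plates. On plate b it was not, with 4 of 40 and 5 of 47 cells.

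The level of Wnt4 followed the same order but the difference did not pass the test. Over thinned reads it was 258, 86.5, 189 and 80.5 CPM in Foxn1-read cells of plates a, c, d and e and 76.9, 3.29, 67.7 and 53.6 CPM in cells without a Foxn1 read. It was higher with Foxn1 on 4 of 4 plates. The log2 fold change of the plate sums was 1.58 (SE 0.70, 95% interval 0.05 to 3.10), with an edgeR adjusted p of 0.76. That fit did not pair the sums of a plate, which share a library. With the plate as a block the log2 fold change was 1.94, also not past the threshold. None of the 6 members tested passed, against 0.106% of 8518 genes (9 genes, all lower in Foxn1-read cells, with Foxn1 itself left out of the count; 15 genes with the plate as a block), and DESeq2, which called 130 genes, called none of the 6. At an unadjusted p under 0.05, 1 of the 6, Wnt4, was past, as were 538 of the 8518 genes. The log2 fold change of Wnt4 was 1.03 with reads as deposited and 0.63 when cells were divided by Foxn1 molecules. Fzd2 had a log2 fold change of 0.67 (95% interval -0.14 to 1.47) and a higher share of cells in the Foxn1-read cells of each plate. Wnt5b was read in 0 of 226 Foxn1-read cells, which allows up to 1.33% by the 3-cell limit, and in 16 of 129 without.

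Cell composition moved with this split. Of the 129 cells without a Foxn1 read, 38 were in the parathyroid range, against 5 of the 226 with one. Without the parathyroid and medullary progenitor ranges, Wnt4 was read in 95 of 212 and 20 of 86 cells, and the log2 fold change was 1.20 (95% interval -0.35 to 2.75, adjusted p = 0.9997 by edgeR). Foxn1-read cells also had more genes at equal depth on each plate, for example a median of 1975.5 against 1817 on plate a. What part these differences have in the result was not tested.

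Across the cells of a plate, the Spearman correlation of Wnt4 with Foxn1 was 0.20 on plate a (91 cells), 0.26 on c (90), 0.25 on d (85) and 0.11 on e (89), and 0.040 on plate b (87). The mean of the 4 plates, 0.21, placed Foxn1 35th of 5843 genes read in at least 10% of E12.5 cells, where the median gene had 0.005 and the 5th and 95th percentiles were -0.097 and 0.12. With the parathyroid and medullary progenitor ranges left out the mean was 0.13 and plate e gave -0.021. The rank and percentiles above include the cells of those ranges and were not taken without them. In molecules the mean was 0.14, with 0.11 on plate c and -0.014 on plate e. These are weak correlations in sparse counts and the cells of a plate share a library. The correlation of Wnt4 with the number of genes in a cell was 0.047, 0.033, 0.16 and 0.008 on plates a, c, d and e, and that of Foxn1 was 0.19, 0.17, -0.016 and 0.13.

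The 5 genes whose reads were most like those of Wnt4, by mean correlation within the 4 plates, were Krt8 (0.33), H2-Ab1 (0.30), Ctsl (0.30), Ptn (0.30) and Ccl25 (0.29). Krt8 encodes a keratin of simple epithelia, H2-Ab1 a chain of MHC class II, Ctsl a protease used by cortical epithelium in antigen processing, Ptn a secreted growth factor and Ccl25 a chemokine that attracts thymocyte progenitors. Each was positive on all 4 plates, from 0.066 for Ptn on plate c to 0.49 for Ptn on plate e. The genes were picked by their mean over these same plates, so the shared sign largely follows from the choice.

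**Figure D5:**
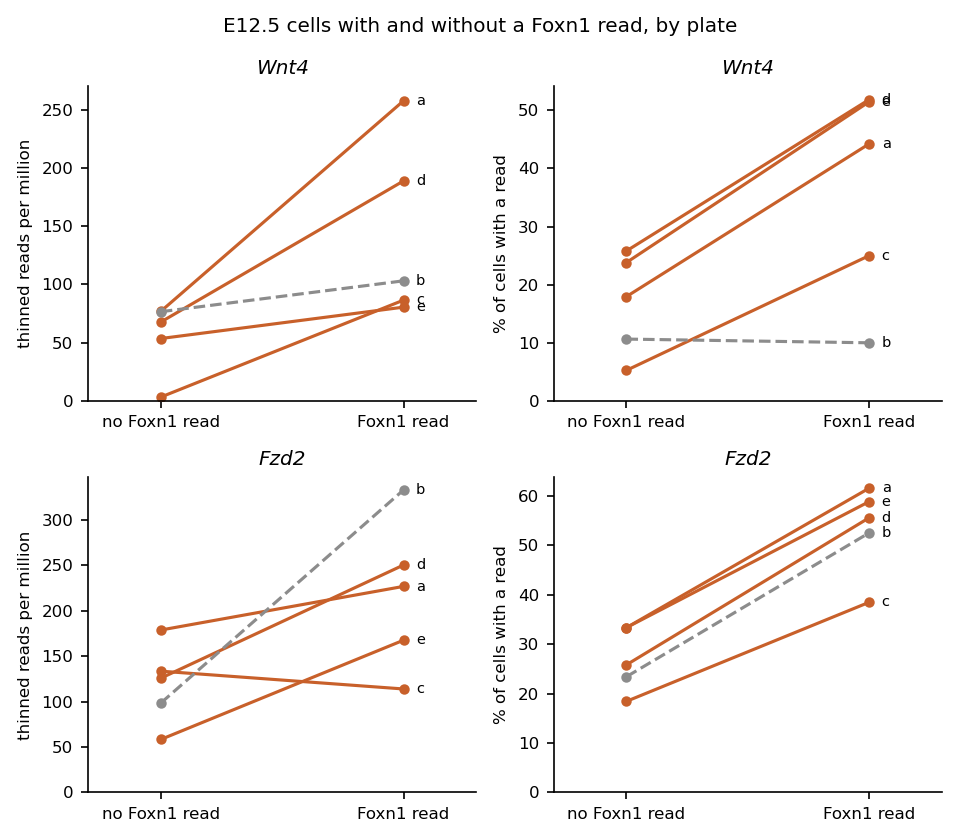
Wnt4 (top) and Fzd2 (bottom) in E12.5 cells without and with a Foxn1 read: CPM of thinned reads (left) and percentage of cells with a read (right), both from 0. Each orange line joins the 2 values of a plate, named by its letter, and the grey dashed line is plate b; Wnt4 is higher with Foxn1 on all 4 plates of the table, and the level of Fzd2 is lower with Foxn1 on plate c.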

How the data were processed

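Single cells were sorted into plates and sequenced with the BD Precise WTA assay (the sample titles name SmartSeq2). The authors deposited raw read counts per gene and well, one table of 8 plates and one file per sequencing run, with molecule counts, per the file headers made with the BD pipeline on GRCm38.p6 and GENCODE vM18. The submitters' processing notes name FastQC, STAR, HTSeq and GRCm38.p5. Of 19 runs, 17 were used. Each plate of the table was matched to a plate letter by exact equality with the sum of 2 of that plate's run files.

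Wells were kept, following the study's limits, at 50% or less mitochondrial reads, 40000 to 400000 reads and 500 to 5000 protein-coding genes. Wells of 1 plate were sequenced as one library, and the plates reuse the same well positions. No doublet caller was run. The reads were summed per plate and tested with edgeR 4.0.16 (TMM, filterByExpr, quasi-likelihood), with DESeq2 1.42.0 as an alternative, in R 4.3.3 and Python 3.11.15. Shares and the Foxn1 split used cells thinned to 40000 reads (seed 1). The fits were tested on simulated data. Intervals of shares are exact binomial, and the limit given for a count of 0 is 3 of the total. The genes named are the 10 members, Foxn1, other genes of a Wnt list past the stage threshold, the 5 genes most like Wnt4 and marker genes. Members and lists were chosen with earlier results of these data known.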

Additional observations from a re-analysis of the deposited data

Results flagged for a closer look

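E12.5 plate b, which had a single sequencing run of 8271865 reads and was outside the main fits (it was added in 1 alternative of the stage test), had levels above every E10.5 plate for Wnt4 (104 CPM), Fzd2 (207 CPM) and Lrp6 (173 CPM). Its share of cells with a Wnt4 read, 9 of 87, was below that of each of the other E12.5 plates.

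In 3 of 40 groups of 4 plates, 1 plate stood far from the others by Dixon's test, and chance flags about 1 in 20 groups. No cell of E12.5 plate d had a Wnt6 read at 40000 reads (a share of 0.0%), where the other E12.5 plates had 1 cell each. Lrp6 was at 99.9 CPM on E12.5 plate d, where 1 cell gave 37.2% of its reads. The other E12.5 plates of the table had 50.9 to 58.9 CPM, and plate b, outside the group, had 173 CPM. Lef1 was read in 23.5% of the cells of E10.5 plate c against 5.68% to 7.69% on the other E10.5 plates.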

How the results depend on the processing

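Wnt4 was past the threshold of the stage test in all 19 other fits (log2 fold change 2.90 to 3.38, edgeR or DESeq2 adjusted p 2.6e-11 to 0.048), Fzd2 in 17 (1.35 to 1.87) and Wnt6 in 6. The count of 3 members called was 2 to 3 when 1 plate was left out, with 496 to 815 of all genes called. Of the wider Wnt list, 3 to 4 genes rose and 2 to 5 fell in these fits. In molecules 4 rose and 7 fell of 53 tested, where 495 and 313 of all 7940 genes did. The plate letters shared by the stages (a, c and d) did not pair the plates, with correlations of their deviations of 0.059, -0.021 and 0.020. With these letters as a block 1 member was called, Wnt4, and all genes called fell to 215 (Fzd2 adjusted p = 0.12, Wnt6 0.20). The same plates without the block, a fit added after seeing the data, also gave 1 member and 382 genes, and the full set 718 genes. DESeq2 called 1269. On these plates Wnt5b turned direction with and without the block (0.86 and 0.82), and Axin2 with it (0.16).

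Other directions that turned, none of them past the threshold, were Wnt5b (0.42 without E10.5 plate b, 0.17 without E12.5 plate e), Axin2 (0.017 without E10.5 plate b), Fzd7 (0.41 in molecules) and Lrp6 (-0.045 without the marker ranges). The Axin2 share difference turned to 0.041 and 0.11 points without E10.5 plate b or E12.5 plate c. In the Foxn1 split Wnt5a turned to 0.33 without plate e, and Ctnnb1 to 0.081 with reads as deposited, 0.0063 without the filter, 0.10 without plate a and 0.03 without plate e. When 1 plate was left out, values ranged from -0.78 to 0.42 for Wnt5b, from -1.05 to 0.017 for Axin2, from -2.24 to 0.11 points for the Axin2 share, and in the Foxn1 split from -1.31 to 0.33 for Wnt5a and from -0.17 to 0.10 for Ctnnb1. The cause was not tested.

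Members with shares that did not overlap numbered 5, with Wnt5a and Wnt5b added, without the neural and parathyroid marker ranges (2 higher and 3 lower, where 5.48% and 4.83% of all 11295 genes did not overlap), and 3 to 4 when 1 plate was left out (6.45% to 9.94% of all genes higher and 4.51% to 15.8% lower, the last without E10.5 plate a). In the Foxn1 split no member was called in any fit, and Wnt4 kept its direction in 10 of 10 (0.63 with Foxn1 read by molecules to 1.94, adjusted p 0.44 to 0.9997, 1.03 with reads as deposited, 1.94 with the plate as a block and 1.38 to 1.85 when 1 plate was left out). All genes called went from 9 to 130 with DESeq2, 15 with the block, 43 with Foxn1 read by molecules, 22 without the filter and 0 without the marker ranges, and to 7, 0, 0 and 2 without plate a, c, d or e. The mean correlation of Wnt4 with Foxn1 was 0.13 without the marker ranges.

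Axin2, Wnt5a, Wnt5b and Fzd7 were read in few cells, and their stage intervals are wide. With 4 plates a stage, no share can pass after adjustment over all genes unless many genes reach the smallest p.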

Other observations

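The reads behind 1 molecule differed among the genes. In the first runs, each molecule was seen in 4.29 reads for Fzd7, 11.2 for Wnt6, 29.2 for Wnt4, 33.9 for Fzd2 and 57.2 for Lef1, where the median gene had 17.9 and the 5th and 95th percentiles were 5.47 and 45.3. Lef1, which overlapped between stages in reads, did not overlap in molecules. Added over both runs and scaled like CPM, these were 10.2 to 31.98 at E10.5 and 3.26 to 9.28 at E12.5. Only 29 Lef1 molecules were counted in the first runs, 1 each on E12.5 plates a, c and d. The separation thus rests on a few molecules, and a molecule seen in both runs can be counted in each. How many of all genes were separated by molecule level was not counted.

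On plate e, the only plate with at least 3 cells in the medullary progenitor marker range, 8 cells of that range had 14.4 CPM of Wnt4 and a read in 2 cells, against 94.0 CPM in the cells of that plate outside both this and the parathyroid range. Over the 4 plates, 4 of 14 cells of the range had a Wnt4 read (28.6%, exact interval 8.39% to 58.1%), against 38.6% of the cells outside both ranges.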
